A study of Mus musculus with 11 samples.

Results

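The tissue inhibitors of metalloproteinases (TIMPs) and RECK were examined in fibroblasts that had been sorted from skin without a wound (NS) or from excisional wounds after 5 days (5dw). The genes were chosen by name, Timp1, Timp2, Timp3, Timp4 and Reck, and all 5 were found among the 47643 gene symbols of the RNA-seq table. The fibroblasts were live cells sorted for CD140a (the receptor encoded by Pdgfra) and against CD45, CD11b and F4/80 (and, per the labels, CD3), from back skin or excisional wounds of mice aged 9 to 12 weeks on a mixed CD-1 and C57Bl/6 background. Act mice (K14-Act) carry an INHBA transgene, encoding the activin A subunit, under the keratin 14 promoter, which drives it in keratinocytes, and wild-type (WT) littermates were the controls. The labels name no other allele and no agent. Each library held RNA pooled from 3 mice, and WT NS, Act NS and WT 5dw had 3 libraries each. Act 5dw had 2, since the authors left out its replicate 2. Values are RPKM, reads divided by gene length and by library size, so that levels can be compared between genes.

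TIMPs are small secreted proteins that bind the active site of metalloproteinases and block matrix breakdown. TIMP1 is the inducible, soluble member and is best known for its binding to MMP9. TIMP2 blocks many MMPs and also takes part in the activation of MMP2 by the membrane-bound MMP14. TIMP3 is held in the matrix and also blocks ADAM and ADAMTS proteases, among them ADAM17, which sheds TNF and EGF receptor ligands. TIMP4 is found mainly in heart, brain and fat. RECK is a membrane-anchored inhibitor of MMPs and a partner of WNT7 signalling. In skin repair, MMPs and their inhibitors together set how far keratinocytes and fibroblasts can remodel the provisional matrix.

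In the GENCODE M21 annotation of GRCm38, Timp1 lies on the plus strand of chromosome X (20870166 to 20874735) within Syn1, Timp3 on the plus strand of chromosome 10 (86300372 to 86349506) within Syn3, and Timp4 on the minus strand of chromosome 6 (115241892 to 115252205) within Syn2. The synapsin genes are on the opposite strand. Timp2 lies on the minus strand of chromosome 11 (118301069 to 118355740) and Reck on the plus strand of chromosome 4 (43875530 to 43944806). All 5 are protein-coding. Of the Timp3 exons, 21.3% (1733 bases) overlap Syn3 exons, and of the Timp4 exons 1.53% overlap Syn2 exons, whereas Timp1, Timp2 and Reck share no exon base with a neighbour.

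The start regions of the genes that moved in opposite directions after wounding are shown for Timp1, Timp3 and Reck, from RefSeq sequence on GRCm38.p6, 5′ to 3′ on the strand of the gene. Capitals mark matches, on either strand, to a GC box (GGGCGG) or a CCAAT box. In Timp1 they also mark a variant AP-1 motif (TGAGTAA). The printed stretches are 160 bases before the GENCODE start, ending shortly before it for Reck, and, for Timp1, the 29 bases that end 50 bases after it.
Timp1, chrX:20870006-20870165, plus strand: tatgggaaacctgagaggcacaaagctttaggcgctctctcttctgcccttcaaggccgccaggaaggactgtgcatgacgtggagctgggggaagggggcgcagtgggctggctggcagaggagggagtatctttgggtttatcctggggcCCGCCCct
Timp1, chrX:20870187-20870215, plus strand: gtggaTGAGTAAtgcgtccaggaagcctg
Timp3, chr10:86300212-86300371, plus strand: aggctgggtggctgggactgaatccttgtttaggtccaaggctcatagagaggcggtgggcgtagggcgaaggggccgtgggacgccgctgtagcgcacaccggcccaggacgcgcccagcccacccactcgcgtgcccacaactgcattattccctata
Reck, chr4:43875360-43875519, plus strand: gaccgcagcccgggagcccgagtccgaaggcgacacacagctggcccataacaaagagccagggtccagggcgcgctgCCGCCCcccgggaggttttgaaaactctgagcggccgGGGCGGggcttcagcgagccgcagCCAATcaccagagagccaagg
Searched over 300 bases, from 250 before to 50 after the RefSeq start, the TGAGTAA match of Timp1 stood at position 27 after the start, and this motif occurred in 2.64% of all 32544 windows of that length. A GC box, found in 35.9% of all windows, was matched in Timp1, Timp2, Timp3 and Reck, with 3 matches in Reck, of which 1 lies outside the stretch printed, and 2 in Timp3, both outside it. The RefSeq start of Timp2 lies 329 bases inside the gene as GENCODE M21 draws it, so the window searched for Timp2 is not in front of its GENCODE start, and none of it is printed. A CCAAT box, found in 37.4%, was matched in Timp1 (outside the stretch printed), Timp2 and Reck. The consensus AP-1 motif TGANTCA (7.79% of windows), the STAT motif TTCNNNGAA (8.33%), the TATA box TATAAA (13.6%) and the SMAD palindrome GTCTAGAC (0.215%) had no match in the window of any of the 5 genes. No motif was matched in Timp4. Both strands were searched, no site can match both AP-1 forms, and a match is only a match of letters.

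The libraries held 18649321 to 39702138 mapped reads, as recovered from the RPKM values. Pdgfra, the gene of the sorted receptor, was at 49.8 to 65.3 RPKM in NS and at 29.6 to 37.3 RPKM in 5dw. Inhba was at 3.40 to 6.93 RPKM in WT NS, 36.3 to 91.1 in Act NS, 15.8 to 24.0 in WT 5dw, with 26.2 and 50.2 in the Act 5dw libraries, so that every Act library was above every WT library of its tissue. Inhba here is the mouse gene, whose regulation the paper takes to reflect activin autoregulation. Keratinocyte markers were present in every library, with a summed level over 14 markers of 1256 to 4680 RPKM in NS and 155 to 1370 RPKM in 5dw, so the sorted cells were not free of keratinocyte RNA. Across the Act NS libraries Inhba followed the order of these sums, and across the WT NS libraries it did not. The part of keratinocyte RNA in the Inhba level was not tested. WT NS replicate 1 and Act NS replicate 1 stood apart from the other NS libraries on the second principal component (22.4 and 35.7 against -18.05 to -7.42), and results are therefore also given without both.

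Timp2 was the most abundant inhibitor of unwounded fibroblasts and Timp1 that of wound fibroblasts. Timp1 rose after wounding in both genotypes, whereas Timp2, Timp3 and Reck fell in both. Timp4 was at or near 0 throughout. A gene was called a DEG at an adjusted p under 0.05 in limma, fitted on log2(RPKM + 0.5) over the 11979 genes that reached 1 RPKM in 2 or more libraries. Timp4 did not pass this filter, and the other 4 genes passed it in both tissues.

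**Figure D1:**
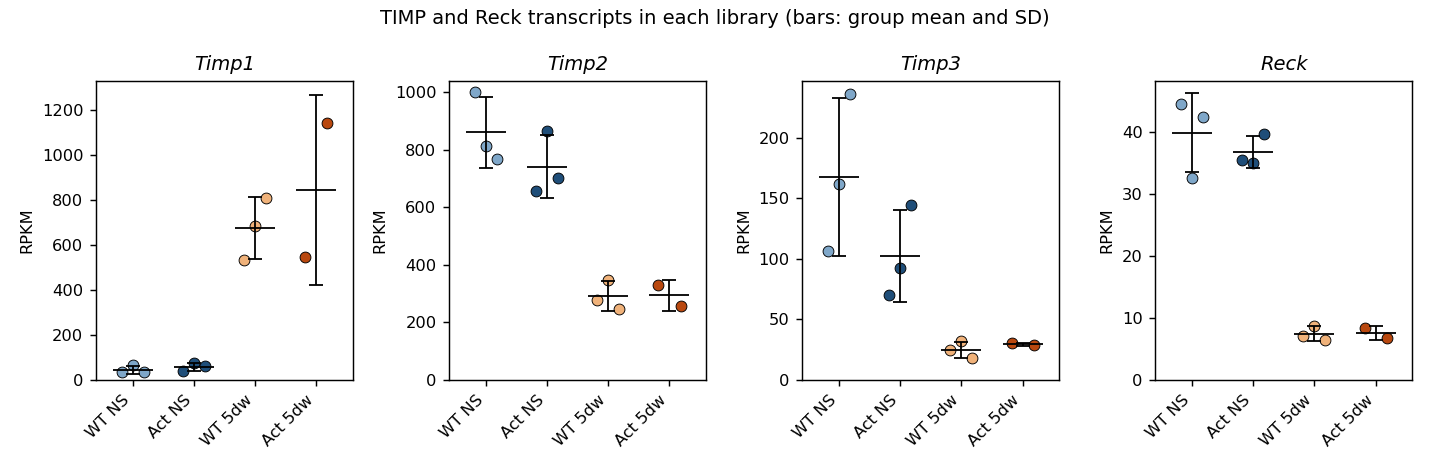
RPKM of Timp1, Timp2, Timp3 and Reck in each library (points, linear y axes from 0, 1 scale per gene) by group, with the group mean and SD as black bars (n = 3 libraries, 2 for Act 5dw). The 5dw libraries of Timp1 sit between 533 and 1143 RPKM, all above the NS libraries, and those of Timp2, Timp3 and Reck all lie below the NS libraries.

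Timp1 was at 32.9, 64.9 and 35.3 RPKM in WT NS, at 39.1, 71.8 and 58.2 RPKM in Act NS, at 533, 684 and 809 RPKM in WT 5dw, and at 544 and 1143 RPKM in the Act 5dw libraries. Every 5dw library was far above every NS library, and of the Act 5dw libraries, replicate 1 lay among the WT 5dw libraries and replicate 3 above them. The mean rose from 44.3 ± 17.8 RPKM (SD, n = 3) to 675 ± 138 RPKM (SD, n = 3) in WT, and from 56.4 ± 16.5 RPKM (SD, n = 3) to 843 ± 424 RPKM (SD, n = 2) in Act mice. On the log2(RPKM + 0.5) scale used for all folds here, this was a log2FC of 3.96 in WT (SE 0.34, 95% interval 3.21 to 4.71, 15.6-fold, limma adjusted p = 1.01e-05) and of 3.84 in Act mice (SE 0.38, 95% interval 3.00 to 4.68, 14.3-fold, limma adjusted p = 3.90e-05). Among the 11979 genes tested, Timp1 had the 20th highest log2FC in WT and the 16th highest in Act mice. By mean RPKM it moved from rank 755 among all genes in NS to rank 41 in 5dw.

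Timp2 was at 1000.5, 813 and 766 RPKM in WT NS, at 658, 865 and 699.7 RPKM in Act NS, at 278, 346 and 245 RPKM in WT 5dw, and at 331 and 256 RPKM in the Act 5dw libraries. The highest 5dw library thus held less Timp2 than the lowest NS library. The WT mean fell from 859.7 ± 124 RPKM to 289.8 ± 51.4 RPKM (SD, n = 3 each), a 2.97-fold lower level (log2FC -1.57, SE 0.18, limma adjusted p = 7.09e-05). In Act mice it was 741 ± 109 RPKM (SD, n = 3) in NS and 293 ± 53.0 RPKM (SD, n = 2) in 5dw, which was 2.53-fold lower (log2FC -1.34, SE 0.21, limma adjusted p = 0.000567). Timp2 remained an abundant transcript, at rank 42 in NS and rank 139 in 5dw.

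As the ratio of the highest to the lowest library, Timp3 varied most of the 4 tested genes in NS. It was at 106, 162 and 236 RPKM in WT NS and at 69.8, 92.7 and 145 RPKM in Act NS. In wounds it was at 24.2, 31.5 and 17.98 RPKM in WT and at 30.3 and 28.5 RPKM in Act mice. No 5dw library reached the level of any NS library. The mean fell from 168 ± 65.3 to 24.6 ± 6.77 RPKM (SD, n = 3 each) in WT, with a log2FC of -2.71 (SE 0.32, 6.54-fold lower, limma adjusted p = 7.67e-05). In Act mice it fell from 102 ± 38.3 RPKM (SD, n = 3) to 29.4 ± 1.24 RPKM (SD, n = 2), with a log2FC of -1.72 (SE 0.36, 3.29-fold lower, limma adjusted p = 0.00313). Among the genes tested, Timp3 had the 175th lowest log2FC in WT and the 607th lowest in Act mice.

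Reck had the narrowest range of the 4 tested genes within each tissue, as the ratio of its highest to its lowest library. It was at 44.6, 32.7 and 42.5 RPKM in WT NS and at 35.6, 35.0 and 39.7 RPKM in Act NS, against 7.13, 8.72 and 6.47 RPKM in WT 5dw, and 8.34 and 6.79 RPKM in the Act 5dw libraries. The 2 tissues did not overlap and the genotypes overlapped in both. The log2FC was -2.35 in WT (SE 0.16, 5.08-fold lower, limma adjusted p = 1.94e-06) and -2.21 in Act mice (SE 0.17, 4.64-fold lower, limma adjusted p = 9.83e-06). The fall of Reck had the smallest adjusted p of the 4 tested genes in both genotypes.

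Timp4 RNA was not detectable beyond single reads. The recovered read count was 1 in each WT NS library, 0, 1 and 1 in the Act NS libraries, 0, 0 and 1 in the WT 5dw libraries and 0 in both Act 5dw libraries, at most 0.0091 RPKM. In the libraries without a read, a count of 0 allows a level of up to 0.0128 to 0.0248 RPKM, taken as 3 reads and covering counting error only. For the libraries with 1 read a limit of 3 reads is too low. No difference between the groups was thus detectable for Timp4.

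All 4 tested genes were DEGs in both genotypes, 1 higher and 3 lower in 5dw. For comparison, 58.3% of all tested genes were DEGs in WT, 9.45% higher and 48.8% lower, and 45.6% were DEGs in Act mice, 9.04% higher and 36.5% lower. Over all genes the tissues did not overlap, with every 5dw library above every NS library, in 8.45%, and with every 5dw library below in 38.9%. A fall in 5dw was thus common in this table, and over all genes the log2FC had a median of -0.40 in WT and -0.31 in Act mice. Median-ratio scaling, which sets this median to about 0, gave 2684 higher and 2655 lower DEGs in WT and 2384 higher and 2492 lower in Act mice. Under that scaling the log2FC in WT was 4.42 for Timp1, -1.12 for Timp2, -2.26 for Timp3 and -1.90 for Reck, and in Act mice 4.19, -0.98, -1.37 and -1.87, with all 4 genes still DEGs. Without WT NS replicate 1 and Act NS replicate 1 the log2FC in WT was 3.78, -1.46, -3.00 and -2.26 for the same genes in that order, and in Act mice 3.597, -1.42, -1.96 and -2.23. In bulk RNA of sorted cells, a change in which fibroblasts were present and a change in the RNA of each cell cannot be told apart.

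**Figure D2:**
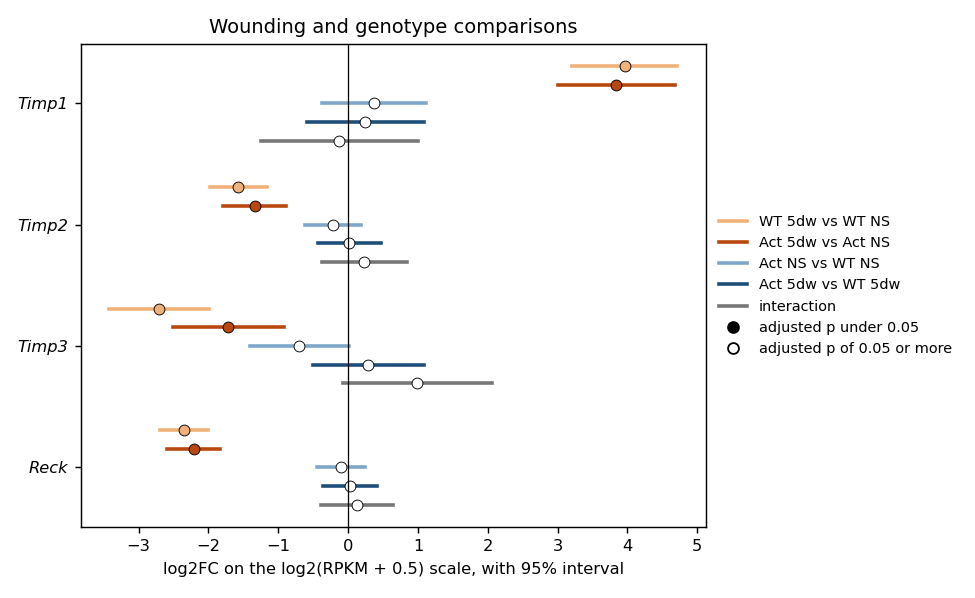
Log2FC (x axis, log2(RPKM + 0.5) scale) with 95% interval (bars) of Timp1, Timp2, Timp3 and Reck from limma in the 2 comparisons of 5dw with NS, the 2 comparisons of Act with WT, and the interaction, with filled points at an adjusted p under 0.05. The wounding intervals lie away from 0, and the intervals of the genotype comparisons and the interaction include 0, for Timp3 in NS only just, at -1.41 to 0.01.

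The order of the inhibitors changed between the tissues. In WT NS the order by level was Timp2, Timp3, Timp1, Reck and Timp4, and the RPKM ranges of Timp1 and Reck overlapped. In Act NS the order was the same, and the ranges of Timp3 and Timp1 and those of Timp1 and Reck overlapped. In both 5dw groups the order was Timp1, Timp2, Timp3, Reck and Timp4, with no overlap between neighbours. Ratios between TIMPs within a library do not depend on the scaling between libraries. Timp1 was at 0.0328 to 0.0832 times the level of Timp2 in the NS libraries and at 1.64 to 4.47 times that level in the 5dw libraries. Against Timp3, Timp1 was at 0.150 to 0.775 times in NS and at 17.97 to 44.99 times in 5dw.

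Within the summed RPKM of Timp1 to Timp4, Timp2 made up 73.8% to 87.8% in the 6 NS libraries and 17.9% to 36.5% in the 5 5dw libraries. Timp1 made up 2.88% to 6.98% in NS and 60.1% to 80.1% in 5dw, and Timp3 made up 9.01% to 22.8% in NS and 1.68% to 3.35% in 5dw. Timp1 thus moved from below both Timp2 and Timp3 in every NS library to above both in every 5dw library. On recovered reads, which are not divided by gene length, Timp2 kept the largest share in 5dw (58.4% in WT and 54.1% in Act mice). The sum was 1072 ± 58.4 RPKM in WT NS, 899 ± 131 RPKM in Act NS and 989.8 ± 134 RPKM in WT 5dw (SD, n = 3 each), and 1166 ± 369.7 RPKM in Act 5dw (SD, n = 2), with NS libraries at 767 to 1139 RPKM and 5dw libraries at 836 to 1427 RPKM, so that the tissues overlapped. These shares and sums are descriptions without a test.

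**Figure D3:**
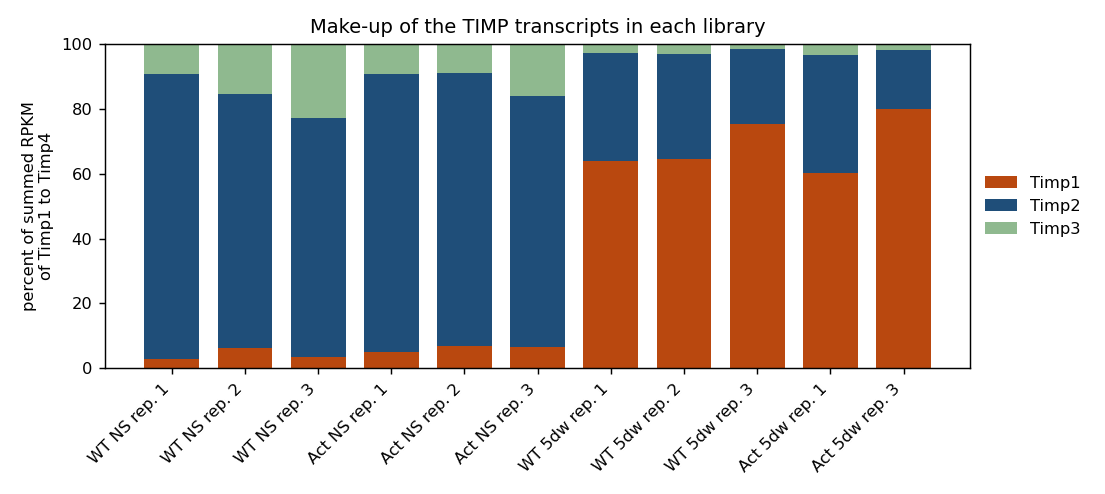
Share of Timp1, Timp2 and Timp3 in the summed RPKM of Timp1 to Timp4 (stacked bars, percent, y axis from 0) in each of the 11 libraries. Timp2 takes 73.8% to 87.8% of the sum in every NS library and Timp1 takes 60.1% to 80.1% in every 5dw library.

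The comparison of Act NS with WT NS asked whether activin from keratinocytes altered these genes in unwounded skin, and none of the 4 tested genes was a DEG, where 0.0167% of all tested genes were, 0.00835% higher and 0.00835% lower. The log2FC of Timp1 was 0.37 (95% interval -0.38 to 1.12), that of Timp2 -0.22 (-0.62 to 0.19) and that of Reck -0.11 (-0.45 to 0.24). The widest departure was that of Timp3, with a log2FC of -0.70 (95% interval -1.41 to 0.01, limma adjusted p = 0.701). The Act NS libraries with 92.7 and 69.8 RPKM of Timp3 lay below all WT NS libraries, and the third, with 145 RPKM, lay among them. Same-numbered NS libraries of the genotypes deviated together, and in each of these 3 pairs Timp3 was lower in Act, but with the replicate number as a block it was again not called (limma adjusted p = 0.549). Timp1 was higher in Act in each of these 3 pairs and was not called with the block either (limma adjusted p = 0.600). For Timp2 and Reck the pairs differed in sign. In 5dw, where 0.0334% of all tested genes were DEGs between the genotypes (0.00835% higher and 0.025% lower), again none of the 4 was. Act 5dw differed from WT 5dw by a log2FC of 0.24 for Timp1 (95% interval -0.59 to 1.08), 0.02 for Timp2 (-0.44 to 0.47), 0.29 for Timp3 (-0.51 to 1.08) and 0.03 for Reck (-0.36 to 0.41). With 2 libraries of Act 5dw, these intervals leave room for a difference of up to 1.08 on the log2 scale for Timp1 and Timp3 in Act wounds.

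The interaction asked whether wounding moved a gene differently in Act than in WT mice. None of the 11979 tested genes passed it (0%), and 0 of the 4 inhibitors had an unadjusted p under 0.05 in limma in the interaction or in either genotype comparison. limma-voom on the recovered reads called none of them either. For Timp3 the log2FC of the interaction was 0.99 (95% interval -0.07 to 2.05, limma adjusted p = 0.999), with a fall of 2.71 in WT and of 1.72 in Act mice on the log2 scale. For Timp1, Timp2 and Reck it was -0.12 (-1.25 to 1.00), 0.23 (-0.38 to 0.84) and 0.13 (-0.38 to 0.65).

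Timp3 moved with the keratinocyte markers within the NS groups. The WT NS libraries had summed keratinocyte marker levels of 1256, 2026 and 2251 RPKM beside Timp3 at 106, 162 and 236 RPKM, and the Act NS libraries had 1269, 2999 and 4680 RPKM beside Timp3 at 69.8, 92.7 and 145 RPKM. In both groups the library with more keratinocyte marker RNA thus had more Timp3. This was also the order of the replicate numbers in both groups, and same-numbered NS libraries of the genotypes deviated together. The groups are therefore not independent of each other. An order by keratinocyte marker RNA cannot be told apart here from an order by replicate. WT NS replicate 1 and Act NS replicate 1 had like sums, with Timp3 at 106 and 69.8 RPKM. WT 5dw replicate 3 had a sum of 1370 RPKM, above that of WT NS replicate 1, and its Timp3 was at 17.98 against 106 RPKM. These 2 sums were not of like make-up. Krt14 was at 528 and Krt10 at 31.9 RPKM in WT 5dw replicate 3, against 192 and 297 RPKM in WT NS replicate 1. This pair therefore cannot show what part of Timp3 was keratinocyte RNA. Of the 14 keratinocyte markers, 11 passed the filter in both tissues, and of these 8 were lower in 5dw in each genotype in limma and 1 was higher in WT, beside 48.8% lower of all tested genes in WT and 36.5% in Act mice. The part of keratinocyte RNA in the Timp3 level of NS was not tested.

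The summed level of the immune cell markers was higher in every 5dw library than in every NS library, as that of Timp1 was, and the markers differed among themselves. Of 11 markers, 5 (Ptprc, Cd52, Laptm5, Coro1a and Adgre1) stayed under 1 RPKM in every library. S100a8 passed the filter only through 5dw and is not counted. Of the 5 markers with levels past the filter in both tissues, 3 (Cd14, Csf1r and Cd3e) were higher in 5dw in WT, and 2 (Cd14 and Cd3e) were higher and 1 (Cd68) lower in Act mice, in limma, beside 9.45% higher and 48.8% lower of all tested genes in WT and 9.04% and 36.5% in Act mice. With median-ratio scaling the same 3 were higher in each genotype, and 0 were lower. That scaling called 44.6% of all tested genes in WT and 40.7% in Act mice. The sum was 18.4 to 51.1 RPKM in NS and 79.3 to 133 RPKM in 5dw, and most of it in 5dw was Cd3e, a T cell receptor chain, at 2.94 to 33.9 RPKM in NS and 55.5 to 105 RPKM in 5dw. Ptprc (CD45), a marker the cells were sorted against, was at no more than 0.0498 RPKM in NS and 0.0392 RPKM in 5dw. The source of the Cd3e RNA was not tested. Among myeloid markers, Cd14 was at 2.79 to 3.67 RPKM in NS and 10.3 to 16.3 RPKM in 5dw, without overlap. Csf1r was at 0.807 to 2.90 and 2.27 to 4.48 RPKM, Lyz2 at 0.928 to 2.75 and 1.28 to 4.00 RPKM, and Cd68 at 6.16 to 12.0 and 4.69 to 6.31 RPKM, all with overlap between the tissues. Endothelial markers were at a sum of 22.4 to 39.7 RPKM in NS and 21.9 to 28.8 RPKM in 5dw, with Emcn, Vwf and Egfl7 under 1 RPKM throughout, and pericyte markers at 57.1 to 114 and 67.4 to 114 RPKM, with Myh11 under 1 RPKM throughout. These sums hid members that moved in opposite directions. Of 3 endothelial markers past the filter in both tissues, Pecam1 was higher in 5dw (3.39 to 5.66 RPKM in NS, 11.5 to 14.0 RPKM in 5dw) and Tek lower (13.9 to 29.4 and 4.74 to 10.2 RPKM) in both genotypes in limma, and Kdr was not called. Of 6 pericyte markers past the filter in both, 1 (Abcc9) was higher and 3 (Cspg4, Mcam and Notch3) were lower in WT, and 1 (Abcc9) was higher and 2 (Cspg4 and Notch3) were lower in Act mice. With median-ratio scaling Tek was no longer called in Act mice, and Cspg4 was the 1 pericyte marker still lower in each genotype. The fibroblast markers summed to 12331 to 17936 RPKM in NS and 22957 to 26176 RPKM in 5dw, and the collagen genes Col1a1, Col1a2 and Col3a1 carried this rise. Of the 10, these 3 were higher in both genotypes, and 5 (Pdgfra, Dcn, Lum, Dpt and Thy1) were lower in WT and 4 (the same without Lum) in Act mice. With median-ratio scaling 4 were higher and 2 lower in WT, and 4 higher and 3 lower in Act mice. Of all tested genes, 44.6% and 40.7% were called with that scaling in WT and Act mice. The part of any of these cell types in the level of an inhibitor was not tested.

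Syn3, the gene on the strand opposite to Timp3, was at 3.46 to 5.78 RPKM in NS and at 1.15 to 2.21 RPKM in 5dw, with a log2FC of -1.30 in WT (limma adjusted p = 0.000321) and -0.72 in Act mice (limma adjusted p = 0.0207). Under median-ratio scaling Syn3 was no longer a DEG in Act mice. Its level was 0.0199 to 0.0577 of that of Timp3 in NS and 0.0475 to 0.0832 in 5dw. The RNA libraries keep strand per the labels, but no source used here says whether the counting used strand, so reads of Timp3 and Syn3 over their shared exon bases may not have been told apart. Syn1, which spans Timp1, was at 0.587 to 0.994 RPKM, and Syn2, which spans Timp4, at no more than 0.201 RPKM, neither with enough expression to be tested.

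Among the matrix metalloproteinases that the TIMPs and RECK bind, more genes rose than fell. Of the 23 genes, 9 passed the filter in both tissues, and in each genotype 6 of them were higher and 1 was lower in 5dw in limma, beside 9.45% higher and 48.8% lower of all tested genes in WT and 9.04% and 36.5% in Act mice. Their median log2FC was 0.48 in WT and 0.66 in Act mice, beside the medians of -0.40 and -0.31 for all genes. The collagenase gene Mmp13 had a log2FC of 3.64 and 3.22 in WT and Act mice, and the stromelysin genes Mmp10 and Mmp3 had 2.26 and 1.58, and 1.64 and 1.28. Mmp19 had 1.19 and 0.94. The limma adjusted p of these 4 genes was at most 0.00219 in either genotype, and without WT NS replicate 1 the log2FC of Mmp13 in WT was 4.24. The gene that fell was Mmp27, with a log2FC of -2.46 and -1.97. Another 2 genes passed the filter only through the tissue in which they were high, and they are given by their levels. Mmp9, the gelatinase that TIMP1 binds, was at 0.105 to 3.48 RPKM in NS and 14.97 to 29.0 RPKM in 5dw, with no overlap. Mmp28, a protease of keratinocytes, was at 0.886 to 1.78 RPKM in NS and 0.0302 to 0.140 RPKM in 5dw.

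Mmp2 and Mmp14, which form an activation complex with TIMP2, were the most abundant of the matrix metalloproteinases in wounds together with Mmp3. Mmp2 was at 537 to 739 RPKM in NS and 774 to 955 RPKM in 5dw, a log2FC of 0.47 in WT (limma adjusted p = 0.0208) and 0.66 in Act mice (limma adjusted p = 0.00890). The Mmp2 call was lost with no filter on low values (limma adjusted p = 0.0953 in WT and 0.0522 in Act mice). It was also lost in WT without WT NS replicate 2 or 3 or without WT 5dw replicate 1 or 2 (limma adjusted p = 0.0577 to 0.0824) and in Act mice without Act 5dw replicate 1 (limma adjusted p = 0.0709). Mmp14 was at 286 to 456 RPKM in NS and 426 to 487 RPKM in 5dw and was not called, with a log2FC of 0.39 in WT (limma adjusted p = 0.0832) and 0.46 in Act mice (limma adjusted p = 0.0819). Without WT NS replicate 1 and Act NS replicate 1 it was higher in 5dw in both genotypes (log2FC 0.58 and 0.55, limma adjusted p = 0.00409 and 0.00972), as it was with median-ratio scaling (0.84 and 0.81, limma adjusted p = 0.00672 and 0.0155) and with array weights, and in WT with the replicate block (limma adjusted p = 0.0436). Leaving out WT NS replicate 1 alone was enough for this in both genotypes (limma adjusted p = 0.00959 and 0.0320), and so was leaving out Act NS replicate 1 in Act mice (limma adjusted p = 0.0491). Within each library, Timp2 was at 1.70 to 2.84 times the level of Mmp14 in NS and at 0.562 to 0.770 times in 5dw, so the more abundant member of this pair was exchanged. Against Mmp2, Timp2 was at 1.11 to 1.51 times in NS and 0.302 to 0.384 times in 5dw. Timp1 went the other way, from 0.0721 to 0.226 times the level of Mmp14 in NS to 1.09 to 2.52 times in 5dw, and from 0.246 to 0.372 times the level of Mmp3 to 1.23 to 2.75 times. Reck was at 0.0922 to 0.133 times the level of Mmp14 in NS and at 0.0146 to 0.0194 times in 5dw. The summed TIMP level was 0.555 to 0.945 times the summed matrix metalloproteinase level in NS and 0.428 to 0.742 times in 5dw, and these ranges overlapped. Only Act NS replicate 1, at 0.555 times, made this overlap. Every other NS library, from 0.745 times in WT NS replicate 1 upward, lay above every 5dw library. Without WT NS replicate 1 and Act NS replicate 1 the NS libraries were at 0.792 to 0.945 times. This ratio was not tested.

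**Figure D4:**
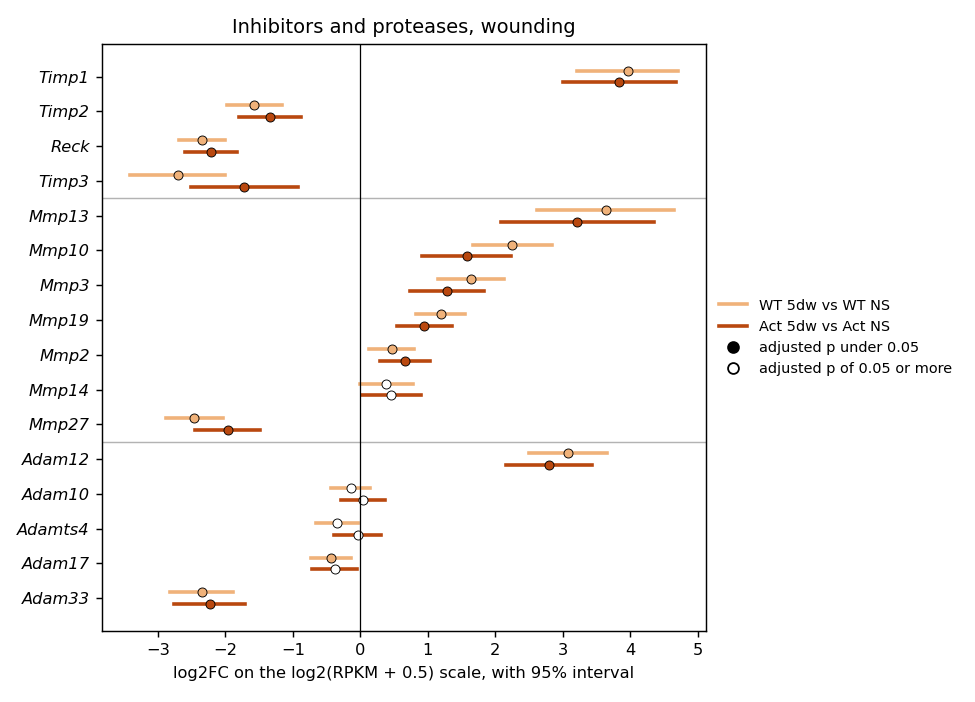
Log2FC of 5dw against NS from limma (x axis, with 95% intervals as bars) in WT and Act mice for the inhibitors, the named matrix metalloproteinases and the named ADAM and ADAMTS proteases that passed the filter in both tissues, with filled points at an adjusted p under 0.05. Timp1 and Mmp13 have a log2FC above 3 in both genotypes, and Timp2, Timp3, Reck, Mmp27 and Adam33 lie below 0 in both.

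Of 9 proteases of the ADAM and ADAMTS families that TIMP3 inhibits, 8 were tested, all 8 with levels past the filter in both tissues. In limma 1 was higher and 2 were lower in WT, where 58.3% of all tested genes were called, and 1 was higher and 1 lower in Act mice, where 45.6% were called. Under median-ratio scaling the counts were 3 higher and 1 lower in each genotype, where 44.6% of all tested genes were called in WT and 40.7% in Act mice. Adam12, expressed by activated mesenchymal cells, rose from 3.54 to 9.19 RPKM across NS libraries to 37.8 to 48.0 RPKM across 5dw libraries, with a log2FC of 3.08 in WT (limma adjusted p = 9.12e-06) and 2.80 in Act mice (limma adjusted p = 5.01e-05). Adam33 fell as Timp3 did, from 16.0 to 31.5 RPKM to 3.28 to 4.33 RPKM, with a log2FC of -2.35 and -2.23 in WT and Act mice. Adam17, the TNF sheddase, was at 13.7 to 18.3 RPKM in NS and 10.3 to 13.1 RPKM in 5dw, with a log2FC of -0.44 in WT (limma adjusted p = 0.0177), and -0.38 in Act mice (limma adjusted p = 0.0623). The Adam17 call in WT was lost with median-ratio scaling (log2FC 0.00), with quantile normalization, without WT NS replicate 2 (limma adjusted p = 0.0554) and without WT 5dw replicate 3 (limma adjusted p = 0.0715), and Adam17 was called in Act mice with array weights (log2FC -0.52, limma adjusted p = 0.00749) and without Act NS replicate 1 (limma adjusted p = 0.0248). Adam10 (12.0 to 16.9 RPKM in NS, 12.4 to 14.2 RPKM in 5dw) and the aggrecanase gene Adamts4 (59.4 to 85.3 and 52.1 to 74.2 RPKM) overlapped between the tissues and were not called. With median-ratio scaling Adam10 was higher in 5dw in both genotypes (log2FC 0.30 and 0.38, limma adjusted p = 0.0351 and 0.0217). Adamts4 was lower in WT without WT NS replicate 1 (log2FC -0.45, limma adjusted p = 0.0247), without Act NS replicate 1 (limma adjusted p = 0.0449) or without Act NS replicate 2 (limma adjusted p = 0.0475), with array weights (limma adjusted p = 0.0395) and with the replicate block (limma adjusted p = 0.0372).

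Of 8 partner proteins of the TIMPs and RECK, 6 passed the filter in both tissues, and in each genotype 3 were higher and 1 was lower in limma. Among all tested genes 58.3% were called in WT and 45.6% in Act mice, so these counts say little about the partners as a list. Cd63, the tetraspanin through which TIMP1 binds cells, rose together with Timp1, from 243 to 310.3 RPKM in NS to 451 to 559 RPKM in 5dw, with a log2FC of 0.85 in WT (limma adjusted p = 0.000234) and 0.92 in Act mice (limma adjusted p = 0.000427). Itgb1, an integrin chain found with CD63 and bound by TIMP2 at the cell surface, had a log2FC of 0.50 and 0.67 (limma adjusted p = 0.00789 and 0.00397). Efemp1, encoding the matrix protein fibulin-3, which binds TIMP3, fell together with Timp3, from 254 to 382 RPKM to 83.2 to 169.9 RPKM, with a log2FC of -1.56 and -1.49 (limma adjusted p = 0.000772 and 0.00267). Wnt7b, whose signal RECK transmits in endothelium, was at 0.549 to 2.39 RPKM in NS and at no more than 0.140 RPKM in 5dw, and it passed the filter only through NS. Adgra2, the receptor that acts with RECK in that pathway, was higher in 5dw, with a log2FC of 0.68 and 0.75 (limma adjusted p = 0.00973 and 0.0138), opposite in sign to Reck.

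Of 4 other inhibitors of metalloproteinases, A2m and Tfpi2 were tested. A2m, encoding the protease trap alpha-2-macroglobulin, was at 0.0544 to 0.230 RPKM in NS and 2.23 to 3.95 RPKM in 5dw, without overlap, and it passed the filter only through 5dw. Its level stayed far below that of Timp1. Tfpi2, a matrix-bound inhibitor, was at 21.7 to 47.0 RPKM in NS and 38.5 to 56.0 RPKM in 5dw and was not called (log2FC 0.40 and 0.73, limma adjusted p = 0.243 and 0.0798). Tfpi2 was higher in 5dw with median-ratio scaling in both genotypes (log2FC 0.85 and 1.08, limma adjusted p = 0.0288 and 0.0177), in both without WT NS replicate 2 (limma adjusted p = 0.0434 and 0.0410) and in Act mice without Act NS replicate 2 (limma adjusted p = 0.0222), with quantile normalization (limma adjusted p = 0.0351) or with the replicate block (limma adjusted p = 0.00539). None of the tested proteases, partner proteins or other inhibitors was a DEG between the genotypes or in the interaction.

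The tested genes whose log2(RPKM + 0.5) followed each inhibitor most closely over the 11 libraries were also named. These correlations rest mostly on the gap between the 2 tissues, which all libraries share, and are given as a description. Closest to Timp1 were Slc39a14 (r = 0.994), the acute-phase gene Saa3 (r = 0.993) and Prg4, encoding lubricin (r = 0.992). Saa3 went from 1.27 to 6.77 RPKM in NS to 956 to 2319 RPKM in 5dw. Closest to Timp2 were Glt8d2 (r = 0.994), Arhgef3 (r = 0.994) and Cpq (r = 0.993), and closest to Timp3 were Ubr1 (r = 0.991), Zc3h13 (r = 0.990) and Casc4 (r = 0.984). Closest to Reck were Ubl3 (r = 0.997), the growth factor gene Bmp4 (r = 0.997) and Dapk1 (r = 0.996), and Bmp4 fell from 9.84 to 17.2 RPKM in NS to 0.215 to 0.569 RPKM in 5dw, so that it passed the filter only through NS.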

How the data were processed

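RNA-seq was analysed from 11 libraries of sorted fibroblasts. The authors used CLC Genomics Workbench 12 to align single 100 bp poly-A reads to GRCm38 and to count them per gene, and deposited RPKM values, the unit used here. Multi-mapping and strand settings of the counting are not given in the sources used here. The authors tested with the edgeR exact test, which takes counts and was not run on these values.

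The 11979 genes that reached 1 RPKM in 2 or more libraries were fitted as log2(RPKM + 0.5) with limma 3.58.1 (trend, 1 mean per group over all libraries, 7 residual degrees of freedom, median prior 3.89) in R 4.3.3. Benjamini-Hochberg adjustment was made over all genes tested, separately for each of 5 comparisons. A fold on this scale understates the change of low genes. Mapped totals (18649321 to 39702138) were recovered by finding the total at which RPKM and GENCODE M21 exon length gave whole reads within 0.03, which held in all libraries for 73.6% of 25117 genes. All libraries differed from each other. Each library pooled RNA of 3 mice across sorting sessions, so p-values measure the spread between such pools.

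Same-numbered WT NS and WT 5dw libraries deviated together from their group means (correlations 0.188, 0.120 and 0.109), as did Act NS and WT NS (0.554, 0.423 and 0.334), so a fit with the replicate number as a block was an alternative. The Act 5dw pairs, 2 per comparison, gave -0.0777 to 0.189. Other alternatives were pseudocounts of 0.1 and 1, no filter or a filter of 5 RPKM, median-ratio scaling, quantile normalization, no trend, array weights, limma-voom on recovered reads and leaving out each library. The inhibitors, the gene lists and the alternatives were chosen with earlier results of these data known. From each list, genes were named in order of p in WT 5dw against WT NS, up to 6 matrix metalloproteinases and up to 4 of the other lists, with Mmp2, Mmp9, Mmp14, Adam10, Adam17 and Cd63 always named. Adgra2 and the cell type markers given by name were added after their values were seen.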

Additional observations from a re-analysis of the deposited data

How the results depend on the processing

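Under every alternative, including leaving out each library in turn, Timp1 was higher and Timp2, Timp3 and Reck lower in 5dw with an adjusted p under 0.05 in limma in both genotypes (88 values without a library and 96 others, over 4 genes and 2 comparisons), and none of the 4 was called between genotypes or in the interaction. Without either Act 5dw library, the library left was assumed to vary like the other groups. The replicate block changed no call of the 4 genes. It left the log2FC of Timp1 in WT at 3.96, that of Timp3 in Act NS against WT NS at -0.70, and turned the Timp1 interaction to 0.049. Signs turned for some uncalled values of the 4 genes. Reck in Act NS against WT NS came to 0.033 with median-ratio scaling and to 6.45e-05 without WT NS replicate 1 and Act NS replicate 1. Leaving out each library gave, for Act 5dw against WT 5dw, -0.29 to 0.78 for Timp1, -0.17 to 0.20 for Timp2 and -0.11 to 0.16 for Reck, and for the interaction -0.66 to 0.41 for Timp1 and -0.0055 to 0.27 for Reck. Among listed genes, median-ratio scaling turned the wounding log2FC of Adam10 in WT (from -0.14 to 0.30, then called), Adam17 in WT (from -0.44, called, to 0.00401) and Adamts4 in WT and Act mice (0.11 and 0.32), and quantile normalization that of Adam10 in WT (0.17) and Adamts4 in Act mice (0.091). In Act mice Adamts4 came to 0.039 with the replicate block and to -0.097 to 0.065 without single libraries, and Adam10 to -0.0098 without WT NS replicate 1 and Act NS replicate 1 and to -0.054 to 0.13 without single libraries. The cause was not tested.

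Recovered reads in place of RPKM, which by construction give longer genes more weight, moved the mean share of Timp1 in WT NS, Act NS, WT 5dw and Act 5dw to 0.837%, 1.31%, 31.3% and 34.6%, that of Timp2 to 70.5%, 76.8%, 58.4% and 54.1%, and that of Timp3 to 28.7%, 21.9%, 10.3% and 11.3%. On reads, Timp2 thus kept the largest share in 5dw.

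limma-voom, which covered fewer genes, tested 4 of the 11 matrix metalloproteinases of the main fit and called these 4 in each genotype. The share of all genes called by limma-voom is not given here, so this count cannot be set beside it. Median-ratio scaling called 40.7% of all tested genes in Act mice. Counts of called ADAM and ADAMTS proteases in Act mice were 4 of 8 with that scaling and 1 of 6 with limma-voom, against 2 of 8. For the other inhibitors they were 0 to 2, against 1, which is A2m, past the filter only through 5dw. Depth limits Timp4, and the number of libraries limits the genotype comparisons, with 2 of Act 5dw.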
